A study of Mus musculus with 55 samples.

Results

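The genes described here are 10 components of the microRNA and RNA interference pathway: Drosha, Dgcr8, Xpo5, Dicer1, Tarbp2, Ago1, Ago2, Ago3, Ago4 and Tnrc6a. They were chosen by name, not by a measured value of their own, but with earlier results of these data known. All 10 were present among the 24475 gene symbols of the count table and among the 13311 that passed the filter on low counts. Liver RNA from 55 male mice aged 5 months was sequenced with a stranded messenger RNA kit, in a study of knocking down ammonia-releasing enzymes in a urea cycle disorder. WT mice were B6EiC3SnF1/J hybrids. OTC mice (B6EiC3Sn a/A-Otcspf-ash/J) carried an Otc allele that impairs the urea cycle enzyme ornithine transcarbamylase. The 6 groups are named by strain and vector: among WT mice 10 received the control vector, 10 sh-Gls2 and 9 sh-Glud1, and among OTC mice 8, 10 and 8 did. Every mouse, the controls included, was injected intravenously at 4 months of age with an adeno-associated virus (AAV), a gene delivery vector, encoding a short hairpin RNA: a scrambled sequence in controls, a hairpin against Gls2 (glutaminase 2) or one against Glud1 (glutamate dehydrogenase 1). All mice ate a 40% protein diet from week 2 after injection to week 5, when livers were taken. No group without a hairpin vector is analysed here, so the comparisons set one hairpin against another and do not measure the effect of carrying a hairpin. The strains differ in stock as well as in the Otc allele, and these cannot be told apart. The promoter that drives the hairpins is not given in the sources used here.

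As background, the nuclease Drosha and its RNA-binding partner Dgcr8 cut primary microRNA transcripts in the nucleus into short hairpins, which exportin-5, the product of Xpo5, carries to the cytoplasm with the GTPase Ran. The nuclease Dicer1, with its partner Tarbp2, cuts these hairpins into duplexes, and 1 strand is loaded into an Argonaute protein (Ago1 to Ago4), of which Ago2 is the member known to slice its target in mammals. Argonautes bind Tnrc6a (GW182), a scaffold that recruits the enzymes that shorten poly(A) tails and remove the cap of target messenger RNAs. Many short hairpin RNAs made by a vector do not need the Drosha step and enter the same route at export. At high dose such hairpins are known to compete with cellular microRNAs for exportin-5 and Argonautes in mouse liver. Whether the hairpins used here need the Drosha step is not given in the sources used here. In hepatocytes, Dicer1 is known to be needed for normal lipid handling and growth control.

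Totals per library lay between 14489866 and 22781052 counts. The counts of the 10 genes lay between 36 (Ago3) and 2401 in a library. Knockdown followed the labels in all groups: Gls2 was at 46.3% of control in WT sh-Gls2 and 45.2% in OTC sh-Gls2, Glud1 was at 37.3% and 41.6% in the sh-Glud1 groups, and Otc in OTC control was at 11.7% of WT control (edgeR, adjusted p between 8.88e-33 and 3.7e-09). Markers of hepatocytes, such as Alb and Apoa1, summed to between 74760 and 133800 CPM (counts scaled to library size) in every library. Some libraries stood apart in these genes and are given with and without below. OTC control mice 3 and 67 and OTC sh-Glud1 mouse 65 had the lowest Ago1 levels of the series, and mouse 3 also had the highest Tnrc6a. WT control mouse 7 had the highest Drosha level in its group. For 1 OTC control library the mouse number in the table differs from that in the sample labels, so it is called the unnumbered OTC control.

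Compared per transcript length, as TPM (transcript abundance scaled to length and library size), Tnrc6a was the most abundant of the 10 in WT control liver at 12.9 ± 0.694 TPM (SD, n = 10). Ago1 followed at 8.80 ± 0.588, Dicer1 at 8.13 ± 0.910, Tarbp2 at 8.11 ± 0.963 and Xpo5 at 7.24 ± 1.09 TPM. Dgcr8 stood at 5.52 ± 0.707, Drosha at 3.68 ± 0.721, Ago2 at 3.55 ± 0.539, Ago4 at 1.75 ± 0.307 and Ago3 at 0.83 ± 0.124 TPM. Tnrc6a was above Ago1, and Ago4 above Ago3, with no overlap between libraries. Xpo5 and Dgcr8, Dgcr8 and Drosha, and Ago2 and Ago4 overlapped in range, yet kept their order within each of the 10 WT control libraries. Neighbours from Ago1 to Xpo5, and Drosha with Ago2, were not ordered in every library: Ago1 exceeded Dicer1 in 8, Dicer1 exceeded Tarbp2 in 6, Tarbp2 exceeded Xpo5 in 8 and Drosha exceeded Ago2 in 5 of the 10.

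Among the Argonautes, Ago1 held the largest share of TPM in each of the 6 groups. In WT control it made up 59.1% ± 2.24 of the Ago1 to Ago4 sum (SD, n = 10), the slicing member Ago2 23.7% ± 2.40, Ago4 11.7% ± 1.37 and Ago3 5.58% ± 0.920. The mean Ago1 share lay between 54.8% (OTC sh-Gls2) and 59.1%, and the mean Ago2 share between 22.96% (WT sh-Glud1) and 28.2% (OTC sh-Gls2). These shares are descriptions without a test. Ago1, Ago3 and Ago4 lie side by side on the minus strand of chromosome 4 (GRCm38, 126331704 to 126533472, a span of 201769 bases), whereas Ago2 lies on chromosome 15. Reads shared by these related genes may be divided in a way that the sources used here do not describe. Exons of Dgcr8 overlap the coding genes Gm49776 (same strand) and Trmt2a (opposite strand), and those of Ago2 overlap Chrac1 (opposite strand). Exons of Tnrc6a overlap the noncoding gene Gm45846 on the same strand, and those of Drosha and Dgcr8 also overlap annotated microRNA genes. How such reads were counted is not given, so reads of these neighbours cannot be told apart.

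**Figure D1:**
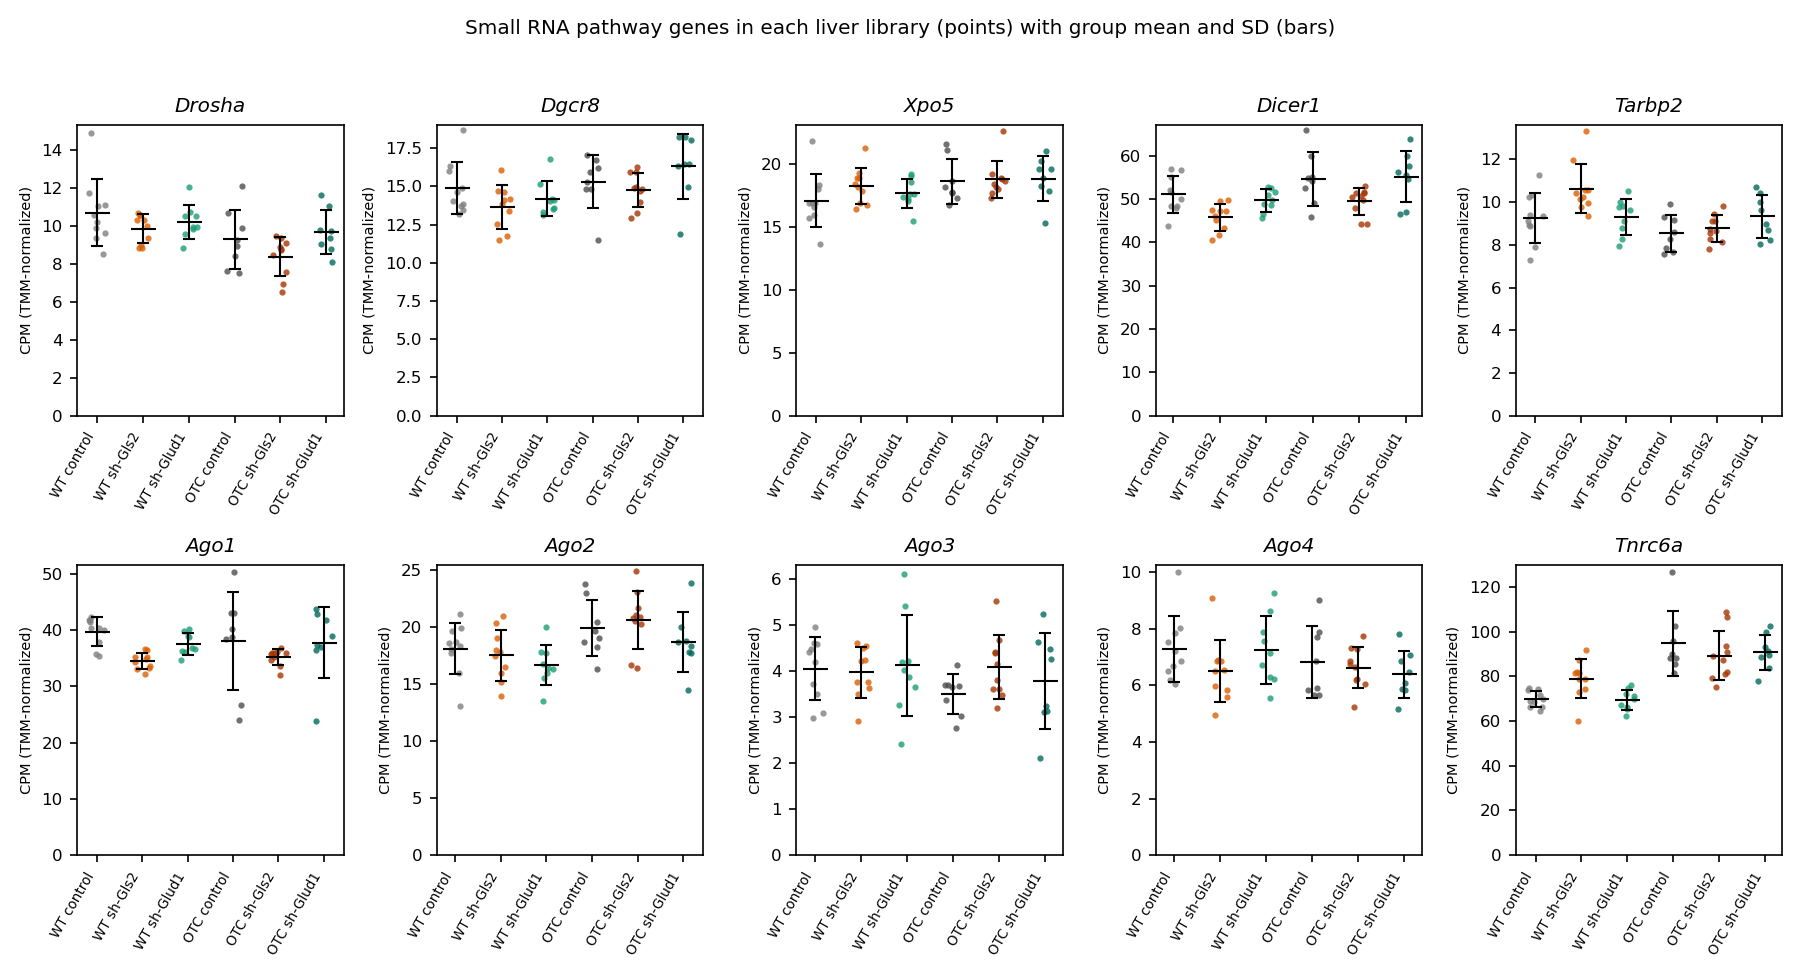
Normalized level (CPM, y axis from 0) of each of the 10 genes in every liver library (points) of the 6 groups, with the group mean (long tick) and SD (whiskers). Tnrc6a is higher in OTC control than in WT control without overlap (81.4 to 127 against 64.7 to 74.9 CPM), and 2 OTC control libraries and 1 OTC sh-Glud1 library are the lowest for Ago1.

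The first comparison asked whether the Gls2 hairpin shifted the pathway relative to the scrambled hairpin in WT liver. Dicer1 and Ago1 fell, and Tarbp2 and Tnrc6a rose, each to between 86.9% and 114.7% of the control level. The other 6 genes were not called. The call, an edgeR quasi-likelihood adjusted p below 0.05 over all 13311 genes, was met by 4 of the 10, against 34.8% of all tested genes (17.6% higher and 17.2% lower), so the share among the 10 was near the background. The median log2 fold change of the 10 genes was -0.08, against -0.01 over all genes tested. No gene of the 10 separated the groups without overlap (4.76% of all tested genes did).

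Dicer1, the cytoplasmic nuclease, had a lowest, median and highest level of 43.7, 50.8 and 56.97 CPM in the 10 WT control livers and 40.5, 46.7 and 49.7 CPM in the 10 WT sh-Gls2 livers. All 10 sh-Gls2 livers were below the control median, while the ranges overlapped. Dicer1 fell to 89.8% of control (log2 fold change -0.16 ± 0.05 SE, edgeR adjusted p = 0.0213). Its partner Tarbp2, which helps Dicer1 bind and measure hairpins, moved the other way, from 7.28, 9.22 and 11.3 CPM in controls to 9.33, 10.4 and 13.3 CPM (lowest, median, highest). All 10 sh-Gls2 livers were above the control median. Tarbp2 rose to 114.7% (0.20 ± 0.07, edgeR adjusted p = 0.0181).

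Ago1, the most abundant Argonaute messenger RNA, ran from 35.3 through a median of 40.3 to 42.3 CPM in WT control and from 32.2 through 34.6 to 36.6 CPM in WT sh-Gls2. All 10 sh-Gls2 livers lay below the control median, and only the upper end of the sh-Gls2 range met the lowest controls. Ago1 fell to 86.9% (log2 fold change -0.20 ± 0.08 SE, edgeR adjusted p = 0.0387). The scaffold Tnrc6a ran from 64.7 through 69.6 to 74.9 CPM in WT control and from 59.96 through 80.2 to 91.9 CPM in WT sh-Gls2, with 9 of 10 sh-Gls2 livers above the control median. Tnrc6a rose to 112.9% (0.18 ± 0.07, edgeR adjusted p = 0.0340). The upper end of the sh-Gls2 livers exceeded every control, while the lowest sh-Gls2 liver was below every control.

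These calls sat close to the threshold. On log2(TPM + 1) or log2(TPM + 0.1) with limma, Dicer1 and Ago1 were not called (adjusted p up to 0.0725 and 0.0997), and without a filter on low counts Tnrc6a was not (0.0665). With 1 library left out, Dicer1 was lost without WT sh-Gls2 mouse 78 (0.0503), and Tarbp2 without WT control mouse 77 or WT sh-Gls2 mouse 14 (up to 0.0636). Ago1 was lost without any 1 of WT control mice 20, 28, 41 and 77 or WT sh-Gls2 mice 1, 18 and 36 (up to 0.0581). Tnrc6a was lost without any 1 of WT control mice 2, 10, 11 and 19 or WT sh-Gls2 mice 1, 30, 36, 78 and 79 (up to 0.0840). The number called of 10 lay between 2 and 5 over these omissions: it was 2 without WT control mouse 77 or without WT sh-Gls2 mouse 1, 36 or 78, and 5 without WT control mouse 7.

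The other genes had intervals that spanned 0 in WT. Drosha ran from 8.52 through 10.4 to 14.9 CPM in control and from 8.82 through 10.1 to 10.7 CPM under sh-Gls2, a log2 fold change of -0.12 with a 95% interval from -0.28 to 0.04. Its partner Dgcr8 had -0.12 (-0.26 to 0.01) and the exporter Xpo5 0.10 (-0.02 to 0.22). Ago2 had -0.05 (-0.21 to 0.12), Ago3 -0.03 (-0.29 to 0.23) and Ago4 -0.17 (-0.36 to 0.03). The edgeR adjusted p of these 6 lay between 0.158 and 0.883. Without WT control mouse 7 Xpo5 was called (log2 fold change 0.14, adjusted p = 0.0452).

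The sequences upstream of the transcription start of the 4 genes called in WT sh-Gls2 are shown because these genes moved in both directions within 1 pathway. They are the 250 bases before the start in RefSeq on GRCm38.p6, 5′ to 3′ on the gene's strand, and capitals mark a match to a searched motif.
Dicer1 (chr12:104751953-104752202, minus strand): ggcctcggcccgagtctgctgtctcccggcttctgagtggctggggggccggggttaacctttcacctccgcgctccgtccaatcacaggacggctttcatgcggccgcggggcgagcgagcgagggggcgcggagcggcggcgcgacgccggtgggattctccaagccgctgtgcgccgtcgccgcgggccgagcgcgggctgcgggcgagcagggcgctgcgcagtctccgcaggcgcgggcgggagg
Ago1 (chr4:126468584-126468833, minus strand): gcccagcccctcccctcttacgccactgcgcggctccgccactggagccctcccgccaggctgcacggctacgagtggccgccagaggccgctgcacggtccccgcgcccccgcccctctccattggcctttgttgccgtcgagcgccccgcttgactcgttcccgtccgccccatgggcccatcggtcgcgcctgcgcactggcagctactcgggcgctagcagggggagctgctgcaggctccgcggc
Tarbp2 (chr15:102517942-102518191, plus strand): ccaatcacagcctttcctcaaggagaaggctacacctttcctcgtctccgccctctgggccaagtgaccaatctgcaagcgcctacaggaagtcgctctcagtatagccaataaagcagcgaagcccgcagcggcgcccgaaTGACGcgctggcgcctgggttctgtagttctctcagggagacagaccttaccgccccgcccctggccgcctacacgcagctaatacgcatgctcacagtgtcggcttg
Tnrc6a (chr7:123123635-123123884, plus strand): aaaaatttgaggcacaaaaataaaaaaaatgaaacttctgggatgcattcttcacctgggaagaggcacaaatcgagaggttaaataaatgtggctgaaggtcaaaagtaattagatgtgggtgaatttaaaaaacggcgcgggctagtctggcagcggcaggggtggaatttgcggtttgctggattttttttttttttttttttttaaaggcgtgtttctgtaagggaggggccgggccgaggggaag

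The upstream regions were searched on both strands, together with the 50 bases after the start, for an E-box (CACGTG), an ETS site (CCGGAAG), a CRE core (TGACG) and an NRF1 core (GCGCAT), and no match of 1 motif lies inside a match of another motif, while matches of the NRF1 core on opposite strands overlap in Xpo5. Of these 4 genes, Tarbp2 held 1 match, a CRE core that begins at position -108, and the windows of Dicer1, Ago1 and Tnrc6a held none of these letters. RefSeq gave such a window for 9 of the 10 genes, and 5 of the 9 held a CRE core, against 20.8% of 32851 promoter windows in the table. An NRF1 core was in 2 of the 9 (Dgcr8 and Xpo5) against 6.86% of all windows, an ETS site in 2 (Drosha and Ago3) against 8.86%, and an E-box in 0 of the 9 against 7.15%. GC content over the 300 bases ran from 44.7% in Tnrc6a to 83.3% in Ago4, with a median of 52.7% over all windows. Tnrc6a thus had the most AT-rich window of the 9, while the other called genes had 59.0% (Tarbp2), 75.7% (Ago1) and 77.3% (Dicer1). The background windows were not matched for GC content, so the shares with a match show no enrichment in these genes. These matches and base contents are descriptions of the windows.

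The same comparison in OTC liver gave 1 call of 10, a fall of Dicer1, against 42.7% of all tested genes (20.2% higher and 22.6% lower). None of the 10 separated the groups without overlap, as 6.74% of all genes did. Dicer1 ran from 45.9 through 54.5 to 65.8 CPM in the 8 OTC control livers and from 44.2 through 50.5 to 52.9 CPM in the 10 OTC sh-Gls2 livers. All 10 sh-Gls2 livers lay below the control median, with overlapping ranges. Dicer1 fell to 90.6% of control (log2 fold change -0.14 ± 0.06 SE, edgeR adjusted p = 0.0387). The call was lost under 7 of 8 other settings, with adjusted p up to 0.364 without OTC control mice 3 and 67 (log2 fold change -0.07). It was also lost without any 1 of OTC control mice 3, 35, 67, 72 and the unnumbered library or OTC sh-Gls2 mice 21, 39 and 49 (adjusted p up to 0.162).

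Ago1 in OTC control spread widely: the 8 livers had 24.05 (mouse 3), 26.6 (mouse 67), 38.4, 38.8, 40.2, 43.1, 43.1 and 50.3 CPM. The 10 OTC sh-Gls2 livers were close together, from 31.96 through 35.8 to 36.7 CPM. All 10 sh-Gls2 livers thus lay above the pair of low controls and below the other 6. With all libraries the log2 fold change was -0.11 (95% interval -0.28 to 0.05, edgeR adjusted p = 0.273). Without mice 3 and 67, Ago1 fell with sh-Gls2 (-0.27 ± 0.07 SE, adjusted p = 0.00137), and without mouse 3 alone it also did (-0.19, adjusted p = 0.0420), so the count is again 1 of 10 without both mice while the called gene is Ago1 in place of Dicer1. Mice 3 and 67 were the controls with the lowest Ago1, so leaving them out by itself raises the control level of Ago1. These omissions therefore cannot show whether Ago1 falls with sh-Gls2 in OTC.

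In OTC the remaining genes had log2 fold changes with sh-Gls2 between -0.15 (Drosha) and 0.22 (Ago3), with edgeR adjusted p between 0.163 and 0.900. Tarbp2, which rose in WT, had 0.04 in OTC (95% interval -0.11 to 0.18), and Tnrc6a had -0.09 (-0.23 to 0.05). The difference of the sh-Gls2 effect between strains was tested as an interaction. Limma, which left out Ago3, called 0 of these genes. By edgeR or DESeq2 0 of 10 genes were called (0.338% of all genes by edgeR). At an unadjusted p below 0.05 there was 1 gene, Tnrc6a, with an OTC minus WT difference of -0.26 ± 0.10 SE (edgeR adjusted p = 0.264). The interaction for Tarbp2 was -0.16 (95% interval -0.36 to 0.04) and for Dicer1 0.01 (-0.15 to 0.17). For sh-Glud1 the interaction gave 0 calls of 10 by edgeR or DESeq2, and 0 by limma without Ago3. At an unadjusted edgeR p below 0.05 there were 0 of 10, and edgeR called 0 of all genes. Within a strain both hairpin comparisons use the same control libraries, and the comparison of strains under the control vector uses both sets of controls.

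**Figure D2:**
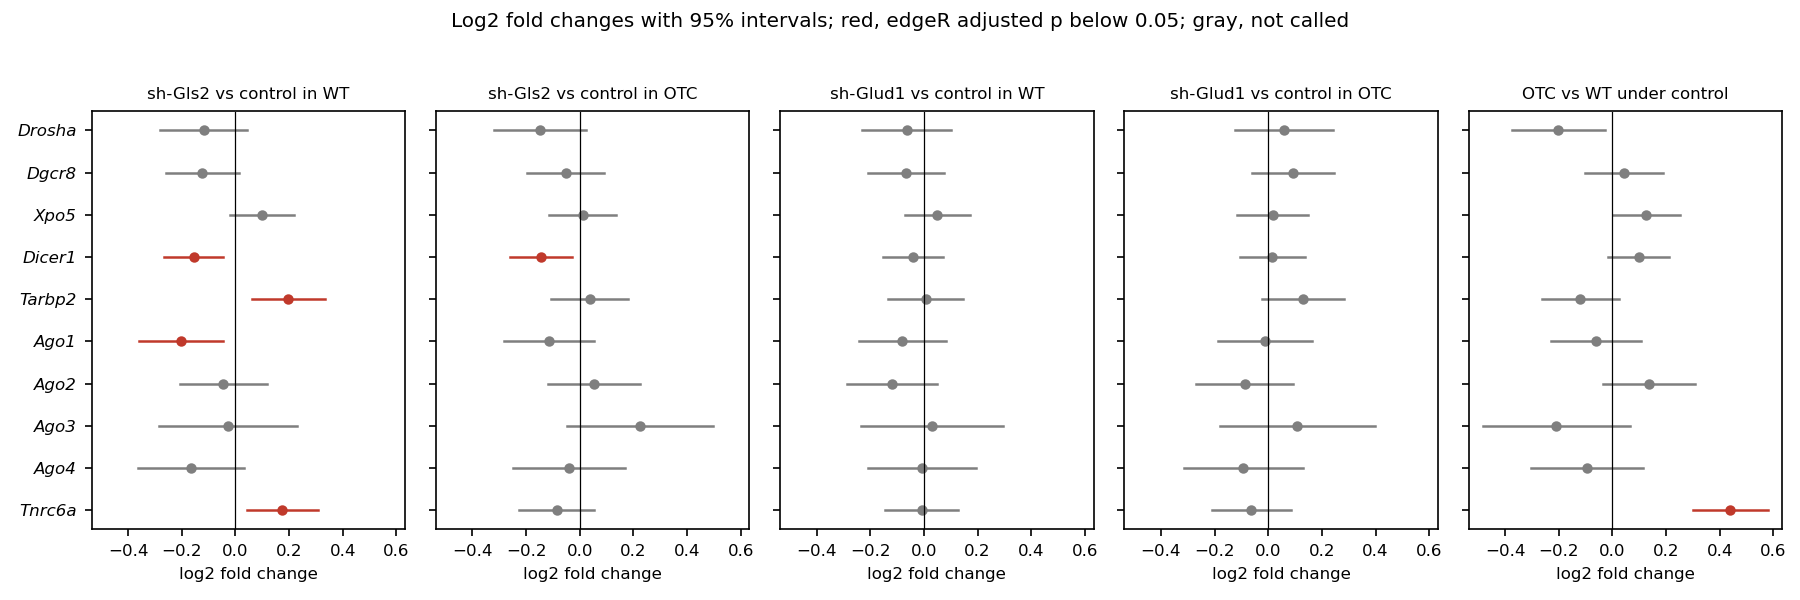
Log2 fold change (x axis) of each of the 10 genes from edgeR in 5 comparisons, with a 95% interval derived from the edgeR F statistic. Red marks an adjusted p below 0.05, met by 4 genes for sh-Gls2 in WT, 1 in OTC, 0 for sh-Glud1 in either strain, and 1 (Tnrc6a) for OTC against WT under the control vector.

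The Glud1 hairpin served as a second hairpin with another target. None of the 10 genes was called with sh-Glud1 against control in WT (0.0225% of all tested genes were) or in OTC (0.0150%), by edgeR or DESeq2. Limma, which left out Ago3, called none of the others. By edgeR 0 of the 10 had an unadjusted p below 0.05 in either strain. In WT the log2 fold changes lay between -0.12 (Ago2) and 0.05 (Xpo5), and in OTC between -0.09 (Ago4) and 0.13 (Tarbp2). The 95% intervals reached at the widest -0.29 and 0.29 in WT, and -0.31 and 0.40 in OTC. The bounds differ by gene, and the widest upper bound in each strain was that of Ago3. Dicer1 had -0.04 (-0.15 to 0.07) in WT and 0.01 (-0.11 to 0.14) in OTC. Xpo5, the shared exporter of hairpins, had 0.05 (-0.07 to 0.17) in WT and 0.02 (-0.12 to 0.15) in OTC. Without OTC control mice 3 and 67 and OTC sh-Glud1 mouse 65, an omission chosen after seeing the data, Ago1 had -0.09 in OTC (adjusted p = 0.964), against -0.01 with all libraries.

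Set directly against each other, the hairpins differed in few of these genes. In WT, sh-Gls2 livers had higher Tarbp2 (log2 fold change 0.19 ± 0.07 SE, adjusted p = 0.0306) and Tnrc6a (0.18 ± 0.07, edgeR adjusted p = 0.0350) than sh-Glud1 livers, 2 of 10 against 29.6% of all genes, and 0 of 10 without overlap against 6.18%. Tarbp2 ran from 7.95 through 9.65 to 10.5 CPM under sh-Glud1, and Tnrc6a from 62.3 through 70.02 to 76.1 CPM, both overlapping the sh-Gls2 ranges. Without a filter on low counts neither was called, and leaving out WT sh-Glud1 mouse 32 or 40 also left 0 called. Other single omissions left 1 called: WT sh-Gls2 mice 1, 14, 30, 34, 36, 78 and 79 and WT sh-Glud1 mice 15, 56 and 57. In a fit of the compared groups alone, Dicer1 and Ago1 were called lower as well (adjusted p = 0.0481 and 0.0123).

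In OTC, sh-Gls2 livers had lower Dicer1 (log2 fold change -0.16 ± 0.06 SE, edgeR adjusted p = 0.0232) and Drosha (-0.21 ± 0.09, adjusted p = 0.0480) than sh-Glud1 livers, 2 of 10 against 40.5% of all genes, and 0 of 10 without overlap against 6.36%. Dicer1 ran from 46.7 through 55.9 to 63.8 CPM under sh-Glud1, and Drosha from 8.12 through 9.53 to 11.6 CPM against 6.53, 8.77 and 9.45 CPM under sh-Gls2. All 10 sh-Gls2 livers lay below the sh-Glud1 median for each gene. Drosha was not called under any of 7 other settings (adjusted p up to 0.0744), nor without any 1 of 12 of the 18 libraries: OTC sh-Gls2 mice 24, 39, 49, 50, 60 and 73 and OTC sh-Glud1 mice 33, 42, 44, 53, 58 and 65 (up to 0.130). When only the compared groups were fitted Dicer1 was not called (0.0636), nor was it without OTC sh-Gls2 mouse 39 or 49 or OTC sh-Glud1 mouse 44 or 58 (up to 0.0868). Without OTC sh-Glud1 mouse 65, Dgcr8 was called lower (-0.20, adjusted p = 0.0194).

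The clearest difference among the 10 genes lay between the strains. Tnrc6a was higher in OTC than in WT control liver: the 10 WT controls ran from 64.7 through 69.6 to 74.9 CPM and the 8 OTC controls from 81.4 through 89.1 to 127 CPM, with no overlap, as for 3.41% of all tested genes. Tnrc6a rose to 135.5% of the WT level (log2 fold change 0.44 ± 0.07 SE, edgeR adjusted p = 2.57e-06). It was the 1 gene of 10 called, against 36.3% of all tested genes (19.9% higher), and it was called without any 1 of the 18 libraries (0.36 to 0.45) and under all 8 other settings (0.32 to 0.53). Without OTC control mice 3 and 67 it was 0.32 ± 0.07 (adjusted p = 0.000182). The same difference was seen with other mice under sh-Glud1, where OTC livers ran from 77.9 through 90.4 to 102 CPM and WT livers from 62.3 through 70.02 to 76.1 CPM, again without overlap (4.88% of all genes). There Tnrc6a rose to 130.5% (0.38 ± 0.07, edgeR adjusted p = 4.1e-05). Under sh-Gls2 it rose to 113.1% (0.18 ± 0.07, adjusted p = 0.0361), with overlapping ranges, and this call was lost without any 1 of WT sh-Gls2 mice 8, 14 and 45 or OTC sh-Gls2 mice 4 and 24 (up to 0.101), without a low-count filter or in a fit of the compared groups alone (up to 0.0625). The comparisons under sh-Gls2 and under sh-Glud1 were added after the data were seen. Exons of Tnrc6a overlap the noncoding gene Gm45846 on the same strand, and reads of this neighbour cannot be told apart.

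Drosha in OTC control ran from 7.51 through 9.10 to 12.1 CPM, against 8.52, 10.4 and 14.9 CPM in WT control, a log2 fold change of -0.20 (95% interval -0.37 to -0.03) that narrowly missed the call (edgeR adjusted p = 0.0603). It passed with DESeq2 size factors (0.0444) and with the DESeq2 Wald test (0.0432), and it passed without any 1 of WT control mice 2, 11, 13, 20 and 77 or OTC control mice 38, 46 and 67 (down to 0.00962). Xpo5 had 0.13 (0.00 to 0.25, adjusted p = 0.108) and passed without WT control mouse 7 (0.16, adjusted p = 0.0269). Under sh-Gls2, 4 of 10 genes differed between strains against 29.5% of all genes, none without overlap (2.72% of all genes): Drosha (-0.23, adjusted p = 0.0264) and Tarbp2 (-0.28, adjusted p = 0.00137) were lower in OTC, and Ago2 (0.23, adjusted p = 0.0232) and Tnrc6a were higher. Under sh-Glud1, 3 of 10 differed, all higher, against 35% (19.9% higher): Dgcr8 (0.20, adjusted p = 0.0294), Dicer1 (0.15, adjusted p = 0.0384) and Tnrc6a were higher in OTC. On the TPM scale the median of all genes was itself 0.10 to 0.18 higher in OTC than in WT. No share of all genes called on that scale is given here. The TPM calls that follow therefore show no shift particular to the 10 genes. On that scale Xpo5, Dicer1 and Ago2 were called higher in OTC control beside Tnrc6a. Under sh-Gls2, Drosha and Tarbp2 were not called on TPM (adjusted p up to 0.424 and 0.107), while Dgcr8, Xpo5 and Dicer1 were called higher (0.22, 0.16 and 0.22 on log2(TPM + 1), limma adjusted p = 0.00618, 0.0234 and 0.000968), so that 5 of 9 genes were higher and 0 lower in place of 2 higher and 2 lower of 10. Under sh-Glud1, Xpo5 and Ago2 were called higher as well on TPM (0.22 and 0.25, limma adjusted p = 0.00293 and 0.00610), which made 5 of 9. The calls that ended when 1 library was left out were Drosha under sh-Gls2 (OTC sh-Gls2 mouse 24 or 50, up to 0.0638), Ago2 under sh-Gls2 (WT sh-Gls2 mouse 1 or OTC sh-Gls2 mouse 50, up to 0.0598), Dgcr8 under sh-Glud1 (8 of 17 omissions, up to 0.0871) and Dicer1 under sh-Glud1 (14 of 17, up to 0.149).

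Among livers given the same hairpin, the 10 genes were also set against the level of the hairpin's target, which varies with the depth of knockdown. The 40 relations (10 genes in 4 hairpin groups of 8 to 10 livers) had Pearson r between -0.591 and 0.663. None had an unadjusted permutation p below 0.05 (exact for groups under 10, 100000 resamples otherwise, two-sided), and the lowest Benjamini-Hochberg adjusted p was 0.784 for Pearson's r and 0.917 for Spearman's rho. Adjusted over the 40, 0 also passed on log2 CPM and without the pair of livers farthest from the target's median. Groups of this size leave moderate relations undetectable.

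Within groups, these genes did not vary as a block. After the group mean was subtracted from log2 CPM, the 45 pairs of genes had Pearson r over the 55 libraries between -0.43 and 0.56, with a median of 0.03 and 26 pairs above 0. The exporter Xpo5 and Dicer1 had the highest r at 0.56, followed by Dgcr8 and Ago1 at 0.46. The lowest were Dicer1 with Ago1 at -0.43 and Ago1 with Tnrc6a at -0.42. Several of these values rested on the 3 libraries with low Ago1 (OTC control mice 3 and 67, OTC sh-Glud1 mouse 65). Over the other 52 libraries, an omission chosen after seeing the data, Dgcr8 with Ago1 had 0.02 and Ago1 with Tnrc6a -0.03, while Xpo5 with Dicer1 had 0.55 and Dicer1 with Ago1 -0.33. The genes nearest to each by this measure were Ndst1 and 1810008I18Rik for Ago1 (0.83 each, and 0.55 and 0.47 without the 3 libraries), Rnf169 and Cir1 for Tnrc6a (0.76 each), Synj1 and Trip12 for Xpo5 (0.73 and 0.72) and Btaf1 and Urb1 for Dicer1 (0.71 and 0.69). For Tarbp2 the nearest, 6030458C11Rik and Mtfr1l, reached 0.47 each. All of these points share libraries and their depth, and the values are descriptions across libraries.

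**Figure D3:**
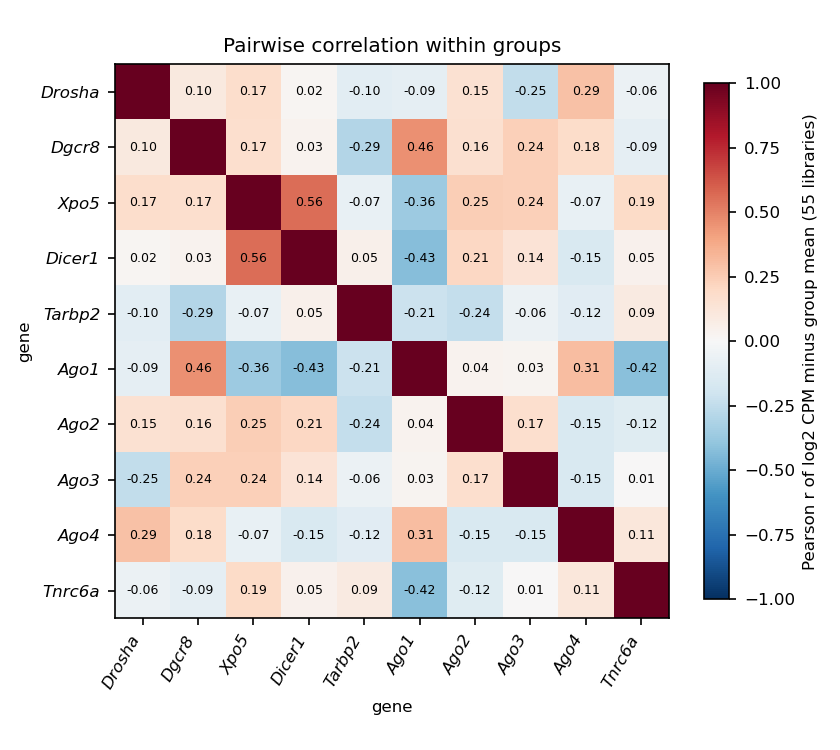
Pearson r between each pair of the 10 genes (both axes) over 55 liver libraries, computed on log2 CPM after subtracting each group's mean; color runs from -1 (blue) to 1 (red). The highest pair is Xpo5 with Dicer1 (0.56) and the lowest is Dicer1 with Ago1 (-0.43), and the Ago1 values include 3 libraries with low Ago1.

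The proteins that work with these 10 were described through 6 lists of other genes: microprocessor cofactors, nuclear export, Dicer partners and Argonaute loading, silencing effectors, Argonaute regulators, and tailing and decay of microRNAs. Of 86 tested genes of the 6 lists, 8 rose and 31 fell with sh-Gls2 in WT, which is 45.3% against 34.8% of all tested genes. In OTC 8 rose and 36 fell, 51.2% against 42.7%. With sh-Glud1 0 of the 86 were called in either strain by edgeR, DESeq2 or limma, with 5 in WT and 4 in OTC at an unadjusted edgeR p below 0.05. Over all tested genes, edgeR called 0.0225% in WT and 0.0150% in OTC. At an unadjusted p below 0.05 there were 697 of 13311 in WT and 639 in OTC, so the counts for the 86 are near the background. The median log2 fold changes of the 86 with sh-Gls2 were -0.09 in WT and -0.10 in OTC, against -0.01 and -0.02 over all tested genes. Without OTC control mice 3 and 67, 9 rose and 31 fell in OTC. The lists were chosen with earlier results of these data known.

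Cofactors of Drosha and Dgcr8 were called in 1 direction. With sh-Gls2, 7 of 13 fell and 0 rose in WT, and 10 of 13 fell and 0 rose in OTC, against 17.2% and 22.6% of all tested genes called lower, while 4 in WT and 6 in OTC were called by limma on TPM. Hnrnpa2b1, an RNA-binding reader of primary transcripts, fell by 0.21 ± 0.05 SE on the log2 scale in WT (edgeR adjusted p = 0.00107), and the fall in OTC was 0.44 ± 0.05 (2.63e-09). The helicase Ddx17 fell by 0.21 in WT and 0.27 in OTC, and the scaffold factor Safb fell by 0.20 in WT and 0.55 in OTC, of which the WT call was lost without any 1 of WT control mice 20 and 28 or WT sh-Gls2 mice 45 and 78 (up to 0.0587). Without WT control mouse 7 or WT sh-Gls2 mouse 78, 4 of 13 were called in WT. In the export list, Ran, the GTPase that exportin-5 needs, rose by 0.52 ± 0.06 in WT (edgeR adjusted p = 3.22e-09), and its rise in OTC was 0.51 ± 0.07 (2.54e-08), while its exchange factor Rcc1 fell by 0.26 and 0.37. In all, 1 of 8 rose and 3 fell in WT (50% called, against 34.8% of all tested genes), with the pore protein Nup153 and the importin Ipo8 beside Rcc1 (Nup153 was lost in 11 of 20 single omissions and 3 of 7 other settings, adjusted p up to 0.125). In OTC 2 rose, Ran and its activating protein gene Rangap1, and 4 fell (75% against 42.7%).

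Among 13 Dicer partners and loading factors, 1 rose and 3 fell with sh-Gls2 in WT, and 0 rose and 5 fell in OTC. These shares, 30.8% and 38.5%, were below the 34.8% and 42.7% of all tested genes, so the genes named here are single values and the list as a whole did not exceed the background. Prkra (PACT), the other double-stranded RNA-binding partner of Dicer1 beside Tarbp2, fell by 0.38 ± 0.08 SE on the log2 scale in WT (edgeR adjusted p = 0.000164), with a fall of 0.29 in OTC (0.00393). Prkra and Tarbp2 thus moved in opposite directions in WT. Tsn, a subunit of the C3PO nuclease that clears the passenger strand, fell by 0.36 ± 0.04 in WT (9.57e-11) and by 0.41 ± 0.04 in OTC (1.29e-11), and the co-chaperone gene Stip1 fell in both strains. The RNA editing enzyme gene Adar was the 1 that rose in WT (0.29, adjusted p = 0.0104), a call lost without WT sh-Gls2 mouse 8 (0.0530). Hspa8, a chaperone gene, fell in OTC (-0.63), and its sh-Gls2 effect differed between strains (-0.87 ± 0.21, edgeR interaction adjusted p = 0.0418), a call of the interaction that was not made without OTC control mice 3 and 67 or without WT control mouse 13.

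Silencing effectors, which act beyond Tnrc6a, had 2 of 29 higher and 12 lower in each strain with sh-Gls2 (48.3% called, against 34.8% in WT and 42.7% in OTC over all tested genes). The deadenylase subunit Cnot6l fell by 0.38 ± 0.06 SE on the log2 scale in WT (edgeR adjusted p = 3.17e-06), with 0.33 in OTC (6.34e-05), the P-body protein gene Lsm14a by 0.22 and 0.24, and the decapping factor Edc3 by 0.30 and 0.37. The decapping enzyme Dcp2 fell in WT (-0.28). The paralogs of Tnrc6a, named after their values were seen, did not follow it in WT: Tnrc6b fell by 0.18 in WT (edgeR adjusted p = 0.0177), with 0.16 in OTC (0.0449), and Tnrc6c fell by 0.29 in OTC (0.00148). The OTC call of Tnrc6b was lost in 12 of 18 single omissions and 7 of 8 other settings (up to 0.261), and that of Tnrc6c without OTC control mice 3 and 67 (0.0623). The 2 that rose in both strains were the helicase Mov10 (0.51 in WT, 0.60 in OTC) and the cap-binding protein gene Eif4e2 (0.16 and 0.14), also named after their values were seen. Among 13 Argonaute regulators 1 rose and 2 fell in each strain, or 23.1%, which is below the share of all tested genes in both strains, so the 3 genes are given as single values. The LIM-domain protein gene Ajuba rose by 1.10 ± 0.25 in WT (0.000445) and 1.76 ± 0.28 in OTC (1.03e-06), while Gemin4 fell by 0.43 and 0.65 and Ankrd52, which aids Argonaute dephosphorylation, fell by 0.39 and 0.36.

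Tailing and decay genes went both ways, with 7 of 10 called in WT and 6 in OTC (70% and 60%, against 34.8% and 42.7% of all tested genes). The uridylyl transferases Zcchc6 (TUT7) and Zcchc11 (TUT4), which add tails to precursor and mature microRNAs, rose with sh-Gls2 by 0.40 and 0.53 on the log2 scale in WT (edgeR adjusted p = 2.85e-05 and 0.000303) and by 0.37 and 0.54 in OTC (0.000152 and 0.000282). The mitochondrial nuclease Pnpt1 rose by 0.46 and 0.48. The exonuclease Usb1 fell by 0.51 ± 0.09 SE in WT (8.08e-06) and 0.53 ± 0.09 in OTC (6.84e-06), with 4 of 10 lower in WT (Usb1, Dis3, Eri1 and Papd4) and 3 in OTC (Usb1, Dis3 and Eri1). In OTC, Dis3 was lost in 12 of 18 single omissions and 7 of 8 other settings (up to 0.174) and Eri1 in 8 and 3 (up to 0.139), and in WT Eri1 was lost without WT control mouse 7 (0.0576). Of the germline piRNA list, 2 of 10 genes passed the filter, and neither was called with sh-Gls2 in either strain.

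**Figure D4:**
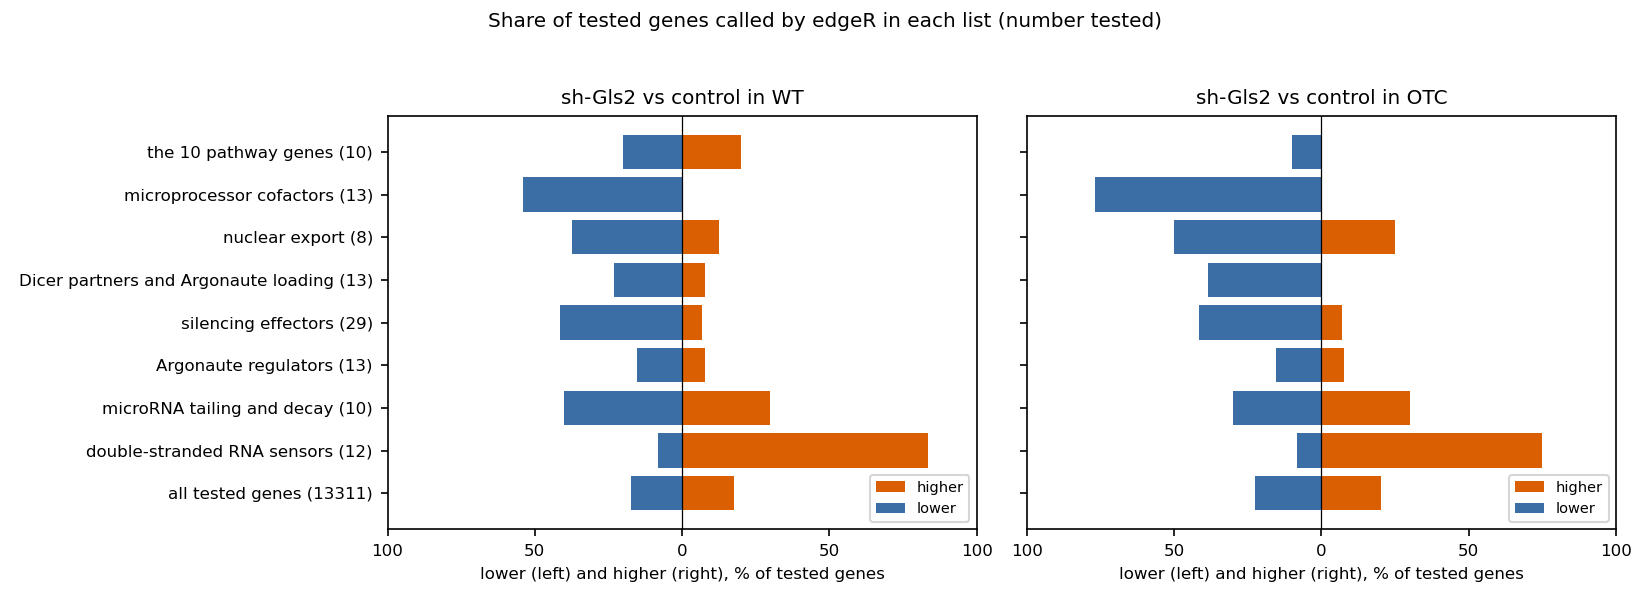
Share of tested genes (x axis, percent) called lower (blue, to the left) and higher (orange, to the right) with sh-Gls2 against control in WT and in OTC, for the 10 pathway genes, 7 other lists and all tested genes; the number tested stands in brackets. Microprocessor cofactors lie on the lower side (7 and 10 of 13), and double-stranded RNA sensors on the higher side (10 and 9 of 12).

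Genes that sense double-stranded RNA moved with sh-Gls2. Every group received a hairpin, the controls included, and the cause of these changes was not tested. With sh-Gls2, 10 of 12 rose and 1 fell in WT, and 9 rose and 1 fell in OTC, against 17.6% and 20.2% of all tested genes called higher. With sh-Glud1 0 of 12 were called by edgeR in either strain, where 0.0225% (WT) and 0.0150% (OTC) of all genes were called. With so few calls over all genes, this count cannot show that the sensors stayed level. Their median log2 fold change with sh-Glud1 was 0.11 in WT and 0.20 in OTC, against -0.005 and -0.002 over all genes. At an unadjusted edgeR p below 0.05 there were 0 of 12 in WT and 1 in OTC. Over all 13311 tested genes there were 697 in WT and 639 in OTC. Ifih1 (MDA5) rose by 0.86 ± 0.10 SE on the log2 scale in WT (edgeR adjusted p = 9.02e-10), with 0.69 ± 0.11 in OTC (6.45e-07), Oasl2 by 1.60 and 1.45, and Zbp1 by 1.76 and 1.49. Mavs, the adaptor downstream of Ifih1, was the 1 that fell (-0.23 in WT, -0.40 in OTC). In OTC against WT control, 7 of 12 were higher and 0 lower (19.9% of all tested genes were higher). The direct comparison of the hairpins gave 10 higher and 1 lower of 12 in WT and 7 higher and 1 lower in OTC, against 15.5% and 19.5% of all genes higher.

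Markers of other cells moved with sh-Gls2 as well, and their part in the results above was not tested. Over all tested genes 17.6% were higher and 17.2% lower in WT, and 20.2% and 22.6% in OTC. Of 12 macrophage markers, 10 rose in WT and 11 in OTC with 0 lower, and their summed level ran from 150.3 to 254 CPM in WT control against 218 to 343 in WT sh-Gls2, and from 139 to 286 in OTC control against 241 to 408 in OTC sh-Gls2. Of 13 tested dividing cell markers, 11 rose in WT and 10 in OTC with 0 lower (28.3 to 41.1 CPM in WT control, 40.9 to 112 in WT sh-Gls2, 29.9 to 40.9 in OTC control, 31.4 to 82.3 in OTC sh-Gls2). Stellate cell markers had 4 of 9 higher in WT and 6 in OTC, endothelial markers 1 of 7 in WT and 6 in OTC, and bile duct markers 1 of 5 in each (all with 0 lower). Hepatocyte markers had 1 of 8 lower in WT and 4 in OTC with 0 higher. The counts for bile duct markers in both strains, and for endothelial and hepatocyte markers in WT, were near or below the share over all genes. Of the T and NK cell, B cell, neutrophil and erythroid markers tested, 0 were called with sh-Gls2 by edgeR. No marker of the called lists was at 0 in all libraries of a group, while 1 of 6 neutrophil markers was at 0 throughout OTC control. Under sh-Glud1, 0 markers of any of these lists were called, where 0.0225% (WT) and 0.0150% (OTC) of all tested genes were. In these bulk livers, fewer cells of a type and less RNA per cell cannot be told apart.

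Host transcripts of microRNAs can be read in these libraries where they are long and have poly(A) tails, although mature microRNAs are not. Host levels do not measure the primary transcripts that Drosha and Dgcr8 cut, least of all where the hairpin lies outside the exons. Of 16 host transcripts listed, 10 were in the table and 6 passed the filter. With sh-Gls2 in WT, 3 of the 6 fell and 0 rose (17.2% of all tested genes fell). In OTC 1 rose and 1 fell, 33.3% against 42.7% of all tested genes. With sh-Glud1 0 were called in either strain by edgeR, where 0.0225% (WT) and 0.0150% (OTC) of all tested genes were. The called hosts carry the microRNAs shown here because they are the products downstream of the machinery. Sequences are RefSeq mature forms (GRCm38.p6), 5′ to 3′, with the seed (bases 2 to 8), which pairs with targets, in capitals. In GENCODE M21, those of Mir17hg and Mir22hg lie wholly within an exon of the host, and those of Dleu2 and Mir99ahg do not. The Mir16-1 hairpin gene, which holds miR-16-5p, overlaps an exon of Dleu2 on the same strand.
miR-15a-5p (chr14:61632075-61632096, minus strand): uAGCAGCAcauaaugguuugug
miR-16-5p (chr14:61631936-61631957, minus strand): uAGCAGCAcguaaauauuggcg
miR-17-5p (chr14:115043684-115043706, plus strand): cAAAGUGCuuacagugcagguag
miR-20a-5p (chr14:115044183-115044205, plus strand): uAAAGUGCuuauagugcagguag
miR-18a-5p (chr14:115043867-115043889, plus strand): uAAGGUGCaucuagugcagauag
miR-19a-3p (chr14:115044048-115044070, plus strand): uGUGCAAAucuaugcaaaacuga
miR-19b-3p (chr14:115044358-115044380, plus strand): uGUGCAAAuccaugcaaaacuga
miR-92a-3p (chr14:115044476-115044496, plus strand): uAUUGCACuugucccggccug
miR-99a-5p (chr16:77598940-77598961, plus strand): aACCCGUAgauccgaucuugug
let-7c-5p (chr16:77599672-77599693, plus strand): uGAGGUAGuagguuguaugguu
miR-125b-5p (chr16:77646279-77646300, plus strand): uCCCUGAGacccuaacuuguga
miR-22-3p (chr11:75463772-75463793, plus strand): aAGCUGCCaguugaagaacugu

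Of these, miR-15a-5p and miR-16-5p from Dleu2 share the seed AGCAGCA. In Mir17hg, miR-17-5p and miR-20a-5p share AAAGUGC, miR-19a-3p and miR-19b-3p share GUGCAAA, and miR-18a-5p (AAGGUGC) and miR-92a-3p (AUUGCAC) have seeds of their own. The 3 microRNAs of Mir99ahg, miR-99a-5p, let-7c-5p and miR-125b-5p, have 3 different seeds. Dleu2 (chromosome 14, 61602839 to 61682373, minus strand) ran from 3.57 through 5.34 to 7.21 CPM in WT control and from 2.17 through 2.92 to 4.12 CPM in WT sh-Gls2, so that the highest sh-Gls2 liver reached only the low end of the controls. Dleu2 fell to 55.6% of control in WT (log2 fold change -0.85 ± 0.17 SE, edgeR adjusted p = 0.000124). In OTC it ran from 1.99 through 3.54 to 5.69 CPM in control and from 1.70 through 2.67 to 3.79 CPM in sh-Gls2, a fall to 73.5% (-0.44 ± 0.19, edgeR adjusted p = 0.0496). The OTC call was lost under 6 of 8 other settings and 12 of 18 single omissions (adjusted p up to 0.169), and the Dleu2 interaction was not called.

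Mir17hg (chromosome 14, 115042879 to 115046727, plus strand) ran from 2.03 through 3.91 to 6.08 CPM in WT control and from 1.33 through 2.12 to 4.21 CPM in WT sh-Gls2. Mir17hg fell to 62.1% (log2 fold change -0.69 ± 0.21 SE, edgeR adjusted p = 0.00761). WT sh-Glud1 livers had a similar Mir17hg level, from 1.66 through 2.34 to 3.87 CPM, with -0.63 ± 0.21 against control, which was not called (edgeR adjusted p = 0.800). Mir99ahg (chromosome 16, 77236317 to 77773427, plus strand) fell to 56.4% (-0.83 ± 0.22, adjusted p = 0.00301), from 0.561 through 0.911 to 1.79 CPM to 0.229 through 0.531 to 0.938 CPM, at levels near the filter. Mir22hg (chromosome 11, 75461539 to 75466676, plus strand) rose in OTC to 122.0% with sh-Gls2 (0.29 ± 0.12, adjusted p = 0.0482), from 40.8 through 54.99 to 66.96 CPM to 47.3 through 67.8 to 82.5 CPM. This call was lost without OTC control mice 3 and 67 (0.102), without a filter on low counts (0.0770) and in 11 of 18 single omissions (up to 0.113). Exons of Mir22hg overlap the coding gene Tlcd2 on the same strand, and exons of Dleu2 and Mir99ahg overlap annotated genes on the opposite strand. Whether counting used the strand is not given in the sources used here, so reads of these neighbours cannot be told apart.

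**Figure D5:**
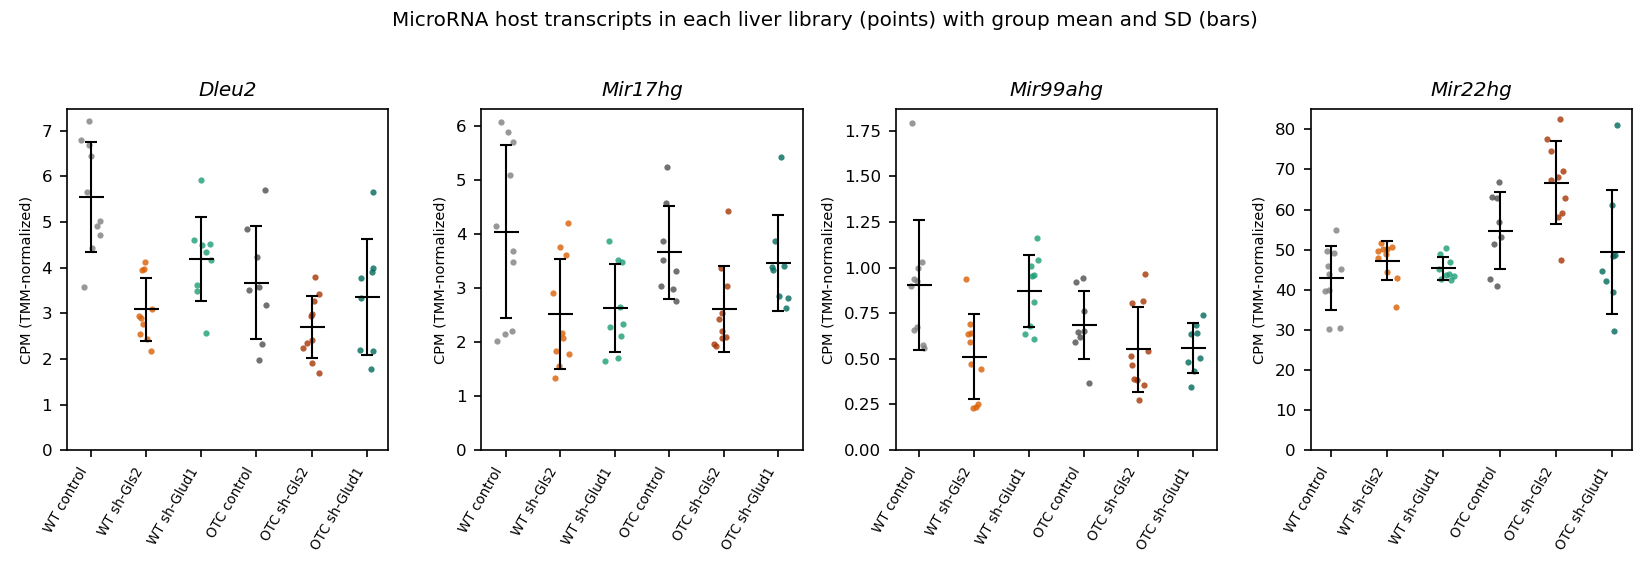
Level (CPM, y axis from 0) of 4 microRNA host transcripts in every liver library (points) of the 6 groups, with the group mean (long tick) and SD (whiskers). WT sh-Gls2 livers are lower than WT control for Dleu2 (2.17 to 4.12 against 3.57 to 7.21 CPM), Mir17hg and Mir99ahg, with overlap in each.

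Between the strains under the control vector, 19 of the 86 genes of the 6 lists were higher and 16 lower in OTC, 40.7% against 36.3% of all tested genes (19.9% higher), and without OTC control mice 3 and 67 these were 13 and 18, while without WT control mouse 13 they were 15 and 18. The scaffold paralog Tnrc6b was lower in OTC (log2 fold change -0.19, edgeR adjusted p = 0.0202) while Tnrc6a was higher, and the Tnrc6b call was lost without OTC control mouse 46 (0.0572), in the compared groups alone and on TPM (up to 0.264). Adar was higher (0.46 ± 0.10 SE, adjusted p = 0.000163), as were Eif4enif1, a repressor that binds the cap-binding protein (0.45), the exonuclease Xrn2 (0.41) and the uridylyl transferase Zcchc11 (0.57, edgeR adjusted p = 0.000246). Ipo8, an importin that binds Argonautes, was lower (-0.37 ± 0.06, edgeR adjusted p = 3.7e-06), as were Cnot8 (-0.40), Rangap1 (-0.57) and Ran (-0.28). Of the hosts, Dleu2 (-0.60) and the imprinted Meg3 and Rian (-2.30 and -2.47) were lower and Mir22hg higher (0.35, lost without OTC control mouse 3 or 35, adjusted p up to 0.0554). Meg3 ranged from 0.448 to 31.8 CPM among WT controls, and the Meg3 and Rian calls ended without WT control mouse 7 (0.138 and 0.146). The Meg3 call also ended on TPM (up to 0.112) and the Rian call without OTC control mice 3 and 67 (0.0534). The piRNA pathway genes Pld6 (1.07, adjusted p = 0.000125) and Piwil2 (1.40, adjusted p = 0.0265) were higher in OTC, and Piwil2 was not called without OTC control mouse 3, OTC control mouse 67, both (adjusted p = 0.618) or WT control mouse 2. Of the marker lists, hepatocyte markers had the largest share called in OTC against WT control, with 4 of 8 higher and 1 lower (62.5%, against 36.3% of all tested genes). Dividing cell markers had 1 of 13 higher and 6 lower, erythroid markers 2 of 5 lower, stellate cell markers 1 of 9 higher and 2 lower, macrophage markers 2 of 12 higher, bile duct markers 1 of 5 higher and endothelial markers 1 of 7 lower, and the T and NK cell, B cell and neutrophil markers had 0 called by edgeR (1, 0 and 0 at an unadjusted p below 0.05). Their part in the strain difference of Tnrc6a was not tested.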

How the data were processed

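Per the labels' protocols, RNA was extracted from liver and strand-specific libraries were made from messenger RNA with a PCR step, so reads are not independent molecules. The authors deposited counts per gene symbol, which were whole numbers with no normalization, and TPM values, scaled to the same total in each column. Per the submitters' processing notes, CASAVA 1.8.2, FastQC and the build GRCm38 were used. The aligner, counting program and annotation are not given in the sources used here. No column lacked a sample or group (0 left out).

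The main test was edgeR 4.0.16 (R 4.3.3): TMM factors (0.924 to 1.12), the filterByExpr filter (minimum count 10, minimum total 15), and 1 quasi-likelihood fit over the 55 libraries with a term per group. Calls are two-sided Benjamini-Hochberg adjusted p below 0.05 over 13311 genes, and levels are TMM-normalized CPM. Single mice are the replicates. Within groups 227 library pairs were compared, and chi-square per degree of freedom was 11.1 or more, so none was a duplicate. The labels name no batch. The script was tested on simulated data.

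The 10 genes, the lists and the tests were chosen with earlier results of these data known. Named were all 10 genes, the targets, up to 3 called genes per list and comparison with the smallest adjusted p, and 2 nearest genes by correlation; a gene named beyond these was chosen after its values were seen. Alternatives were DESeq2 1.42.0 (size factors, Wald test), no filter, at least 1 CPM in 8 libraries, the compared groups alone, limma 3.58.1 on TPM (pseudocounts 1 and 0.1, mean of at least 1 TPM, which leaves out Ago3), and omissions of libraries. Positions are from GENCODE M21 on GRCm38.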

Additional observations from a re-analysis of the deposited data

Results flagged for a closer look

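In each of the 6 groups, the highest and the lowest library of each of the 10 genes was compared with its nearest neighbour by Dixon's test. Of these 60 sets of libraries, 7 held a library far from the others, where chance gives about 1 in 20. Drosha was at 14.9 CPM in WT control mouse 7, above the other controls. Dgcr8 was at 11.5 CPM in OTC control mouse 67, the lowest of its group. Xpo5 was at 22.7 CPM in OTC sh-Gls2 mouse 31, the highest of its group. Ago1 was at 23.8 CPM in OTC sh-Glud1 mouse 65, the lowest of its group. Ago4 was at 10.02 CPM in WT control mouse 41 and at 9.07 CPM in WT sh-Gls2 mouse 79, the highest of each group. Tnrc6a was at 127 CPM in OTC control mouse 3, the highest of all libraries. OTC control mice 3 and 67 were both low for Ago1, and that set of libraries did not meet the test.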

How the results depend on the processing

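The number of the 10 genes called with sh-Gls2 in WT (4) was 2 on either TPM scale, and 2 to 5 with 1 library left out in turn. With sh-Gls2 in OTC (1) it was 0 with DESeq2 size factors, the DESeq2 Wald test, the 1 CPM filter, the compared groups alone and both TPM scales, and 0 to 1 with 1 library left out. Between hairpins in WT (2) it was 0 without a filter, 4 in the compared groups alone and 0 to 2 with 1 library left out. Between hairpins in OTC (2) it was 0 in the compared groups alone, 1 under each other setting and 0 to 2 with 1 library left out. For OTC against WT it was 2 with DESeq2 size factors and the Wald test, 4 on TPM and 1 to 2 with 1 library left out under the control vector (1), 5 on TPM (all higher, against 2 higher and 2 lower) and 2 to 4 with 1 left out under sh-Gls2 (4), and under sh-Glud1 (3) 1 without a filter or in the compared groups alone, 5 on TPM and 1 to 3 with 1 left out. The TPM counts between strains stand beside a median of all genes that was also higher in OTC on that scale. The counts of 0 for sh-Glud1 and both interactions were 0 under every alternative run, as were the 0 relations to the target. The totals over the 6 supporting lists stayed within 1.5 times under every alternative. Of 3188 alternative values of 110 results of the 10 genes, 3033 kept their direction and side of the threshold or were uncalled on both sides (126 of them with a change of sign), 122 lost and 33 gained a call, and 0 reversed. The cause of each lost or gained call was not tested. No paired analysis was possible because mouse numbers do not repeat across groups. Depth limits Ago3 most, at 36 counts in its lowest library.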
